A study of Mus musculus with 6 samples.

Results

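The 10 genes described here encode the regulators of the antioxidant response: Nfe2l2, which encodes the transcription factor NRF2, its relative Nfe2l1, the NRF2 inhibitor Keap1 and its partner Cul3, the autophagy receptor Sqstm1, the repressors Bach1 and Bach2, and the small MAF genes Mafg, Mafk and Maff. They were taken by name, and all 10 were found among the 16381 genes listed. They were measured by bulk RNA sequencing of activated group 2 innate lymphoid cells (aILC2s), lymphocytes of the lung that release type 2 cytokines without an antigen receptor. Both groups came from wild-type BALB/c mice, a strain that makes little or no melatonin of its own, and all mice had been given 0.5 µg of IL-33, the epithelial alarmin that activates ILC2s, into the nose on each of 3 days. The ILC2s were sorted as live CD45+ cells negative for lineage markers and positive for ST2 and CD127, then cultured for 24 h with 250 µM melatonin, the hormone of the circadian night, or with its solvent DMSO (vehicle). There were 3 melatonin libraries and 3 vehicle libraries, and since nothing states whether the libraries of a group came from separate mice, the p-values measure the spread between these libraries. By the methods, the mice were female and 6 to 8 weeks old.

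NRF2 is a basic leucine zipper factor of the CNC family that binds antioxidant response elements (AREs) in DNA as a pair with a small MAF protein. In resting cells, KEAP1 holds NRF2 and hands it to the CUL3 ubiquitin ligase, so that NRF2 protein is short-lived, and oxidants or electrophiles that modify the cysteines of KEAP1 let NRF2 build up and switch on genes for glutathione, thioredoxin, NADPH and iron handling. BACH1 and BACH2 pair with the same small MAF proteins and repress the same kind of element, and p62, the product of Sqstm1, competes with NRF2 for KEAP1. Most of this control acts on protein, which RNA sequencing does not measure.

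The values are normalized counts: read counts estimated per gene and divided by a size factor per library. Estimated depth was between 17053317 and 20508920 counts per library. All 12 ILC2 markers examined were listed, and their summed level was between 196800 and 210700 in vehicle and between 139400 and 159500 with melatonin. By the limma test described below, 2 of the 12 were called higher and 6 lower, beside 24.5% and 24.7% of all genes tested. Markers of other cells were lower with melatonin in several lists: 4 of 7 T cell markers were listed (sum 3649 to 3980 in vehicle, 1318 to 1826 with melatonin; Cd4, Cd8a and Cd5 not listed), 5 of 6 macrophage and monocyte markers (1339 to 1520 against 362 to 800.2), and 2 of 4 eosinophil markers (277 to 332 against 8.40 to 21.1; Prg2 and Epx not listed). The 4 NK cell markers summed to between 202 and 266 in vehicle and between 19.6 and 30.6 with melatonin, and the 5 epithelial markers to between 931 and 2212 and between 1058 and 1261. The summed Y-linked transcripts were between 2680 and 3038 in the 3 vehicle libraries and in melatonin replicate 1, and listed at 0 in melatonin replicates 2 and 3, where Xist, the transcript of the silenced X chromosome, was 579 and 1091. The Y-linked transcripts go against the female sex that the methods state. The mix of sexes also differed between the groups. The part of these differences in the results below was not tested, although an alternative fit used only the libraries with Y-linked transcripts. Fewer cells of a type cannot be told apart from less RNA per cell.

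The promoters of 5 members are printed to show where the letters of the ARE occur at the members' own genes. The sequences were read from GRCm39 and run from 250 bases before to 50 bases after the start site of the canonical transcript in the GENCODE annotation, 5′ to 3′ on the gene's strand. Capitals mark each match to the ARE core TGACNNNGC, searched on both strands, so that a match on the opposite strand reads GCNNNGTCA. Sqstm1 (chr11:50102836-50103135, minus strand), Cul3 (chr1:80318488-80318787, minus strand), Mafg (chr11:120524325-120524624, minus strand) and Mafk (chr5:139777014-139777313, plus strand) are shown because they hold a match, and Nfe2l2 (chr2:75534936-75535235, minus strand) because it rose most among the abundant members and holds none.
Sqstm1: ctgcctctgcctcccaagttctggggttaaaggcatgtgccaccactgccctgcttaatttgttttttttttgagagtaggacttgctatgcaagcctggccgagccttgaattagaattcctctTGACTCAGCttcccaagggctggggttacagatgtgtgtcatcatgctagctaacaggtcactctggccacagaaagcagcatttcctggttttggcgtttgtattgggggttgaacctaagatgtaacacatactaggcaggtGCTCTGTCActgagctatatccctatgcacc
Cul3: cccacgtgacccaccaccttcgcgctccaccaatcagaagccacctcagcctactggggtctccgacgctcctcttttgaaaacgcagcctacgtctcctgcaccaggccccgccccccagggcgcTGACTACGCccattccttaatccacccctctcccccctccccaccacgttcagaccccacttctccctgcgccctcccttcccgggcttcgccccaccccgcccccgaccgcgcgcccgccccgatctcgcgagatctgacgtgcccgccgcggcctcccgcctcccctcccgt
Mafg: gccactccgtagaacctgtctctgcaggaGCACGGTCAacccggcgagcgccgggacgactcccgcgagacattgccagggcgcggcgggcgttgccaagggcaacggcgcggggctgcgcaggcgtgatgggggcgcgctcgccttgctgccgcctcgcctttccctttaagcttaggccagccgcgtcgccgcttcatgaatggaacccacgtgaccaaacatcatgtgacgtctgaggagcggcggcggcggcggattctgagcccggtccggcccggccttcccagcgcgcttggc
Mafk: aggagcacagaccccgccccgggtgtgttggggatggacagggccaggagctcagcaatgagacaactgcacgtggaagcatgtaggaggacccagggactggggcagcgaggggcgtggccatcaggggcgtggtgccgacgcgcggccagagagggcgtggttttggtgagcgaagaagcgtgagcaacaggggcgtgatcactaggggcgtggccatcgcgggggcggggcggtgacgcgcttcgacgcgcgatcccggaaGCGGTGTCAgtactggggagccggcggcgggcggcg
Nfe2l2: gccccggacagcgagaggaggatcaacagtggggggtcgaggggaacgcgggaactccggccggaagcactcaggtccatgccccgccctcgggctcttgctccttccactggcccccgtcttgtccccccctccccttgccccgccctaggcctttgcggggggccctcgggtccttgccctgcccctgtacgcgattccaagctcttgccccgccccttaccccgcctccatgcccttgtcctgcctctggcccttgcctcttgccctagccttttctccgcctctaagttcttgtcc

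The core was present in 4 of the 10 promoters, and in 12.47% of 21757 promoters of the same length over the genome and 13.74% of the 12051 that belong to genes tested. In Sqstm1, 1 match began 125 bases before the start site (the start being base 1 and the base before it base -1) and overlapped a match to the AP-1 site TGANTCA, and another began at base 20 of the transcribed side on the opposite strand. In Cul3 the match began 124 bases before the start, in Mafg 221 bases before it and in Mafk at base 15 after it, the latter pair on the opposite strand. Among the members the AP-1 letters matched in Sqstm1 alone, against 7.15% of all promoters and 5.45% of those of genes tested. The E-box CACGTG, which is its own reverse complement, matched in Cul3, Mafg, Mafk and Maff, against 7.82% of all promoters and 10.11% of those of genes tested. A match is a description of letters and not evidence of binding, and a promoter without a match may hold an element outside this window.

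**Figure D1:**
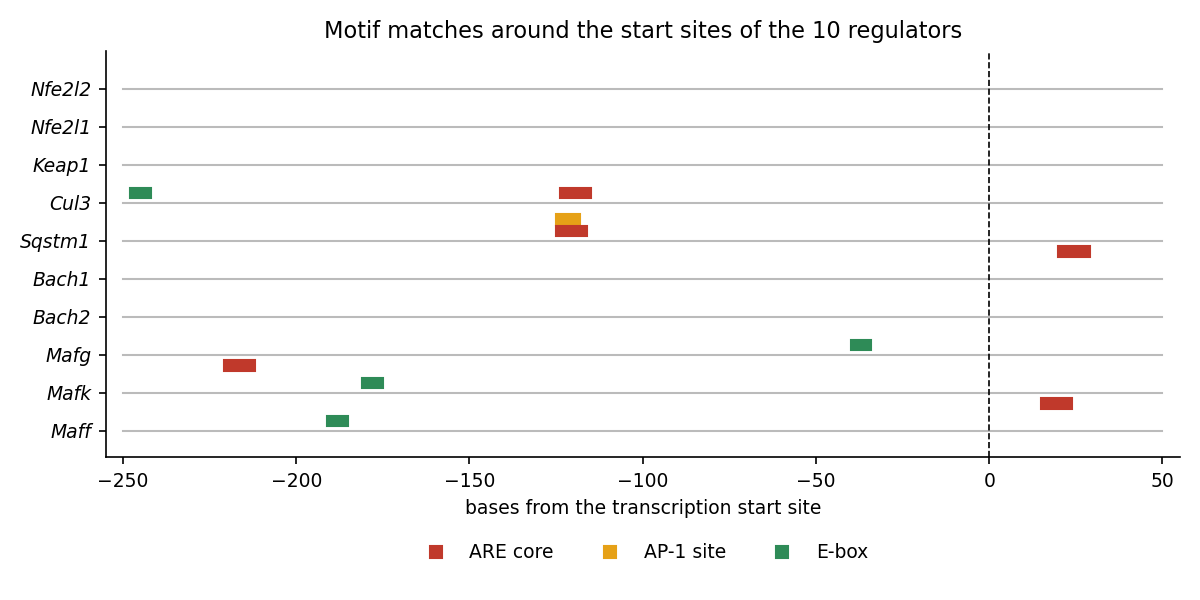
Positions of motif matches in the 300 bases around the start site of each of the 10 regulators, with bases from the start site on the horizontal axis and 1 line per gene. Boxes above a line are matches on the gene's strand and boxes below it on the opposite strand, the AP-1 box being stacked on the ARE box it overlaps. ARE core matches are seen in Sqstm1, Cul3, Mafg and Mafk.

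Melatonin was compared with vehicle to ask which regulators of the response changed at the RNA level. Of the 10 members, 5 rose (Nfe2l2, Nfe2l1, Keap1, Sqstm1 and Bach2), 1 fell (Maff) and 4 did not pass the test (Cul3, Bach1, Mafg and Mafk), by limma with Benjamini-Hochberg adjustment over 14419 genes and a threshold of 0.05. Over all genes tested, 24.5% were called higher and 24.7% lower, so that calls were common in this comparison, and the members' counts are 50% and 1 of 10 beside them. The libraries of the groups did not overlap for the same 6 members, 5 above and 1 below, while over all genes 30.0% lay fully above and 30.3% fully below. The median log2 fold change of the members was 0.27, beside -0.005 over all genes tested. Without vehicle replicate 1 or vehicle replicate 2, 3 and 2 members were called higher, and without vehicle replicate 2, vehicle replicate 3 or melatonin replicate 1, 0 were called lower. The rises differed widely in size: Bach2 and Nfe2l2 more than doubled, whereas Nfe2l1, Keap1 and Sqstm1 rose by ratios of only 1.22, 1.22 and 1.21.

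**Figure D2:**
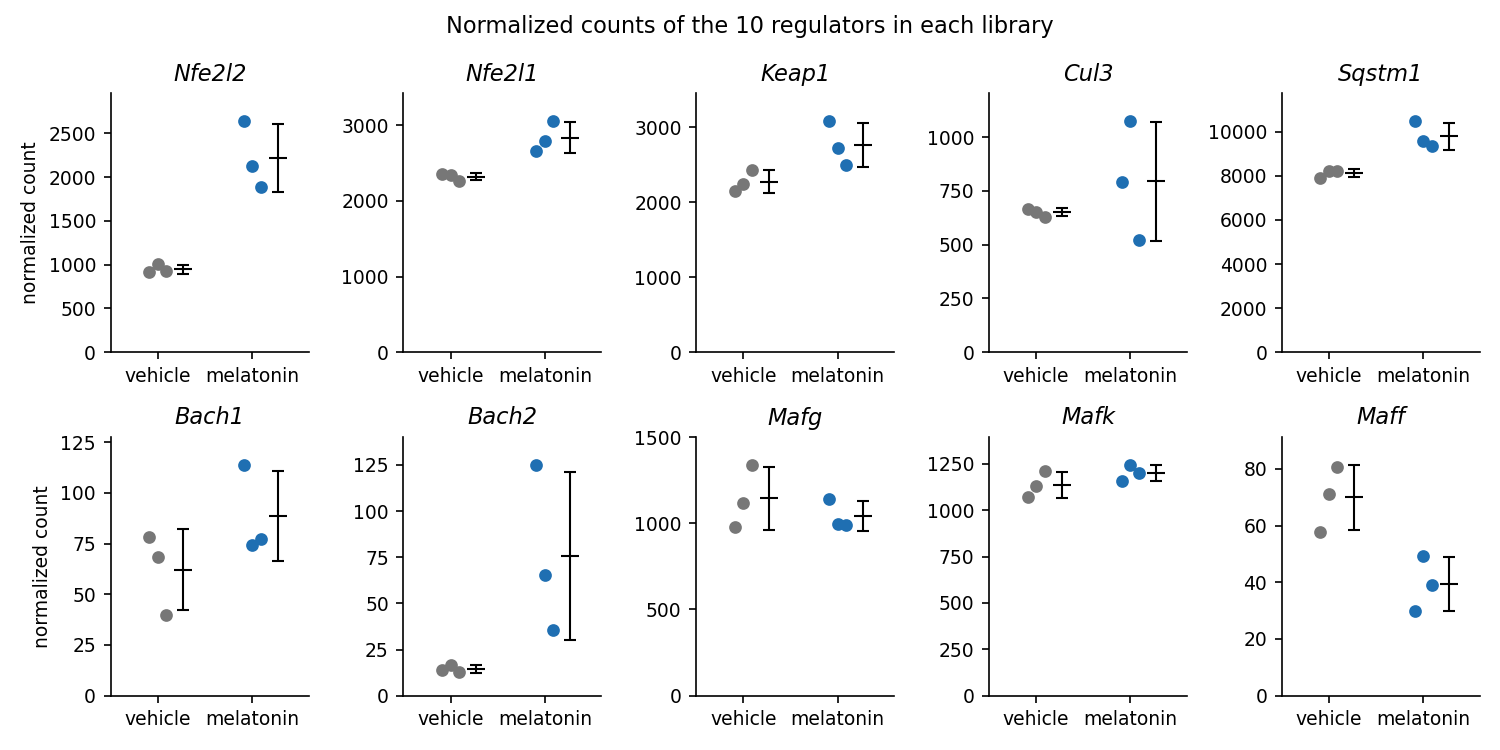
Normalized counts (vertical axes, starting at 0) of the 10 regulators in each library, vehicle in grey and melatonin in blue, with the mean and SD of 3 libraries in black beside the points. Nfe2l2 sits between 916 and 1006 in vehicle and between 1881 and 2637 with melatonin, and Cul3 spreads from 520 to 1074 within the melatonin group.

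Nfe2l2 (ENSMUSG00000015839, GRCm39 chr2:75504739-75534985, minus strand) carried the NRF2 transcript. Its normalized counts were 916, 1006 and 922 in vehicle replicates 1, 2 and 3 and 2637, 2126 and 1881 in melatonin replicates 1, 2 and 3. Every melatonin library was above every vehicle library, and the lowest of them stood far above the highest vehicle value. The mean rose from 948 ± 50.5 to 2215 ± 386 (SD, n = 3 each), a log2 fold change of 1.21 (SE 0.12, 95% interval 0.93 to 1.49, limma adjusted p = 0.000155). The spread also widened, from 5.33% to 17.4% of the mean. The call held under all 19 alternative settings, with log2 fold changes from 1.08 to 1.48.

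Nfe2l1 (ENSMUSG00000038615, chr11:96705767-96720813, minus strand) encodes NRF1, a CNC factor that is anchored in the endoplasmic reticulum and, once cut and released, drives proteasome genes. Normalized counts of 2357, 2341 and 2268 were measured in vehicle, against 2657, 2797 and 3055 with melatonin. The groups did not overlap, although the gap between them was small next to that of Nfe2l2. This gave a log2 fold change of 0.29 (SE 0.08, 95% interval 0.11 to 0.47, limma adjusted p = 0.0156). The call was lost under 4 of 19 alternatives. These were the removal of the dependence on transcript length (adjusted p = 0.0894), leaving out vehicle replicate 2 (0.29, adjusted p = 0.053) or vehicle replicate 3 (0.27, adjusted p = 0.0592), and using only the libraries with Y-linked transcripts.

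Keap1 (ENSMUSG00000003308, chr9:21141026-21150679, minus strand) encodes the adaptor that recognizes NRF2 and senses electrophiles. Its normalized counts were 2145, 2247 and 2438 in vehicle and 3083, 2726 and 2499 with melatonin. The lowest melatonin library stood only just above the highest vehicle library, so the groups were apart by a narrow margin. The log2 fold change was 0.28 (SE 0.10, 95% interval 0.06 to 0.50, limma adjusted p = 0.0392). Among the 5 rises this was the one most often lost, under 8 of 19 alternatives, with the replicate block among them (adjusted p = 0.0816). Leaving out vehicle replicate 1 (0.24, adjusted p = 0.134), vehicle replicate 2 (0.27, 0.112), melatonin replicate 1 (0.20, 0.067) or melatonin replicate 2 (0.29, 0.0781) ended the call each time. With only the libraries that carry Y-linked transcripts the log2 fold change was 0.44. That fit kept melatonin replicate 1 alone of its group, the highest library for Keap1.

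Cul3 (ENSMUSG00000004364, chr1:80242639-80318537, minus strand) encodes the scaffold of the ligase that KEAP1 serves. The libraries held 667, 654 and 631 normalized counts in vehicle and 793, 1074 and 520 with melatonin. Melatonin replicate 3 was below all vehicle libraries and the other melatonin libraries were above them, so the groups overlapped. The spread was 2.86% of the mean in vehicle and 34.8% with melatonin. The log2 fold change of 0.23 (SE 0.22, 95% interval -0.27 to 0.73) did not pass limma (adjusted p = 0.412). It depended on single libraries, being 0.50 (adjusted p = 0.0185) without melatonin replicate 3 and -0.02 (adjusted p = 0.94) without melatonin replicate 2.

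Sqstm1 (ENSMUSG00000015837, chr11:50089572-50107684, minus strand) encodes p62, which carries ubiquitinated cargo to autophagosomes and binds KEAP1. It was measured at 7907, 8219 and 8224 normalized counts in vehicle and 10480, 9563 and 9344 with melatonin. It was the most abundant member in every library, with no melatonin library as low as a vehicle library. Sqstm1 had a log2 fold change of 0.27 (SE 0.08, 95% interval 0.10 to 0.44, limma adjusted p = 0.0167). The call was lost under 3 of 19 alternatives, namely the length correction (adjusted p = 0.0723) and leaving out vehicle replicate 1 (0.25, adjusted p = 0.0761) or vehicle replicate 2 (0.28, adjusted p = 0.0558). Of the 4 members with the ARE letters shown above, Sqstm1 alone passed the test.

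Bach1 (ENSMUSG00000025612, chr16:87495782-87530234, plus strand) encodes the heme-sensing repressor of ARE genes. Its normalized counts were 78.4, 68.4 and 39.9 in vehicle and 114, 74.3 and 77.4 with melatonin. A single melatonin library was above all vehicle libraries, and the others lay within the vehicle range. The log2 fold change was 0.53 (SE 0.29, 95% interval -0.14 to 1.20) and did not pass limma (adjusted p = 0.164), nor did it under any of 18 alternatives. It was 0.24 without vehicle replicate 3, 0.34 without melatonin replicate 1 and 0.92 with only the libraries that carry Y-linked transcripts. The interval reaches more than a doubling, so these libraries do not show that Bach1 was level.

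Bach2 (ENSMUSG00000040270, chr4:32238714-32586108, plus strand) encodes a repressor known from B and T cells, where it holds back effector differentiation. Its normalized counts were 14.0, 16.9 and 12.6 in vehicle and 125, 65.6 and 35.8 with melatonin. All melatonin libraries were above all vehicle libraries, but they differed from each other by far more than the vehicle libraries did. The mean rose from 14.5 ± 2.18 to 75.5 ± 45.5 (SD, n = 3 each), a ratio of 5.21. For Bach2 the log2 fold change was 2.14 (SE 0.43, 95% interval 1.16 to 3.11, limma adjusted p = 0.00367). The vehicle values rest on between 12 and 18 estimated counts per library, so counting error alone is large there. The call held under all 18 alternatives, with log2 fold changes from 1.67 to 3.04. Of 5 B cell markers, 2 were listed, at a summed level of 289 to 322 in vehicle and 131 to 162 with melatonin, and their part in the change of Bach2 was not tested.

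The small MAF proteins have a DNA-binding zipper but no activation domain of their own, and serve as partners of both NRF2 and the BACH proteins. Mafg (ENSMUSG00000051510, chr11:120515942-120524530, minus strand) was at 976, 1117 and 1340 normalized counts in vehicle and 1140, 995 and 988 with melatonin. Mafk (ENSMUSG00000018143, chr5:139776804-139788408, plus strand) was at 1069, 1130 and 1212 in vehicle and 1156, 1245 and 1201 with melatonin. The groups overlapped for both genes. The log2 fold change was -0.13 for Mafg (SE 0.12, 95% interval -0.41 to 0.16, limma adjusted p = 0.42) and 0.08 for Mafk (SE 0.08, 95% interval -0.11 to 0.27, limma adjusted p = 0.455). The value of Mafg was -0.24 without vehicle replicate 1 and -0.0073 without vehicle replicate 3. That of Mafk was 0.037 without vehicle replicate 1 and 0.13 without vehicle replicate 3. The interval of Mafk is narrow enough to leave out a change as large as that of Nfe2l2 in either direction, and so is that of Mafg.

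Maff (ENSMUSG00000042622, chr15:79230821-79243276, plus strand) was the only member that fell. It stood at 57.9, 71.2 and 80.8 normalized counts in vehicle and 29.9, 49.2 and 39.2 with melatonin. Every melatonin library was below every vehicle library. The mean fell from 70.0 ± 11.5 to 39.4 ± 9.64 (SD, n = 3 each), a ratio of 0.564 and a log2 fold change of -0.83 (SE 0.26, 95% interval -1.42 to -0.24, limma adjusted p = 0.027). The call was lost under 4 of 18 alternatives, which were quantile normalization (adjusted p = 0.0558) and leaving out melatonin replicate 1 (-0.65, adjusted p = 0.0538), vehicle replicate 2 (-0.81, 0.0816) or vehicle replicate 3 (-0.72, 0.0984).

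**Figure D3:**
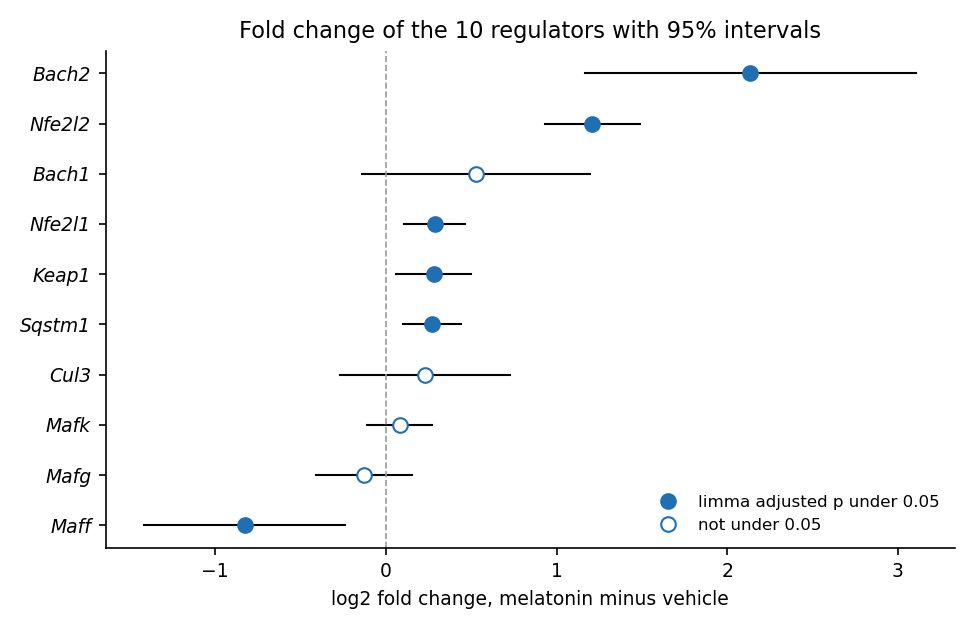
Log2 fold change of each regulator (points, melatonin minus vehicle, 3 libraries each) with its 95% interval from limma (lines), ordered by size, filled where the adjusted p was under 0.05. Bach2 at 2.14 and Nfe2l2 at 1.21 stand above the others, and Maff at -0.83 is the only filled point below 0.

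Levels were compared between members as normalized counts per kilobase of the canonical transcript. In vehicle the order was Sqstm1 (2484 ± 55.7, SD, n = 3), Keap1 (711 ± 46.4), Nfe2l1 (505 ± 10.2), Mafk (398 ± 25.2), Nfe2l2 (264 ± 14.1), Mafg (148 ± 23.7), Cul3 (129 ± 3.69), Maff (35.7 ± 5.88), Bach1 (10.5 ± 3.38) and Bach2 (1.61 ± 0.24). Only Mafg and Cul3 were neighbours within their spread. With melatonin Nfe2l2 reached 616 ± 107 per kilobase, passed Mafk (421 ± 15.7) and stood level with Nfe2l1 (617 ± 44.0). The other neighbours within their spread with melatonin were Cul3 (158 ± 54.9) with Mafg (134 ± 11.1), Maff (20.1 ± 4.93) with Bach1 (15.0 ± 3.72), and Bach1 with Bach2 (8.41 ± 5.07). The summed small MAF level per kilobase was 582 ± 54.6 in vehicle and 575 ± 12.7 with melatonin, while the sum of Nfe2l2 and Nfe2l1 went from 769 ± 19.6 to 1233 ± 68.2. Within these sums Mafk held 68.6% and then 73.1% of the small MAF level and Maff 6.11% and then 3.49%, Nfe2l2 held 34.3% and then 49.8% of the CNC pair, and Bach2 held 13.9% and then 34.0% of the BACH pair. Even after its rise, Bach2 remained the member with the lowest mean level per kilobase.

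Ratios between 2 members within a library do not depend on the scaling between libraries, except through the 1 added to each value before taking log2. A two-sided exact permutation test was run on 8 log2 ratios, for which 3 against 3 cannot give a p below 0.1. Per kilobase, Nfe2l2 stood at 0.380, 0.399 and 0.337 of Keap1 in the vehicle libraries and at 0.762, 0.695 and 0.671 of it in the melatonin libraries. NRF2 transcript thus gained on the transcript of its inhibitor in every melatonin library, with no overlap and a log2 difference of 0.93 (exact p = 0.1, adjusted 0.16). Relative to Nfe2l1, Nfe2l2 stood at 0.497, 0.550 and 0.520 in vehicle and 1.27, 0.972 and 0.788 with melatonin, a log2 difference of 0.92 (exact p = 0.1, adjusted 0.16). The groups were also apart, with the same exact p, for Nfe2l2 against Bach1 (0.68), Bach2 against Bach1 (1.61) and Maff against Mafg (-0.70, or -0.45 without melatonin replicate 1). With 0.1 or 10 added in place of 1, the difference of Bach2 against Bach1 was 1.66 or 1.20. For Nfe2l2 against Bach1 the margin was very narrow. The log2 ratio of normalized counts was 4.498 in vehicle replicate 3 and 4.521 in melatonin replicate 1. The ratio of Sqstm1 to Keap1 had nearly the same mean in both groups, 1.84 in vehicle and 1.83 with melatonin on the log2 scale of normalized counts (SD 0.07 in each group, exact p = 1). Mafk against Mafg (0.21, exact p = 0.2, or 0.13 without vehicle replicate 3) and Cul3 against Keap1 (-0.05, exact p = 0.9) overlapped between the groups.

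**Figure D4:**
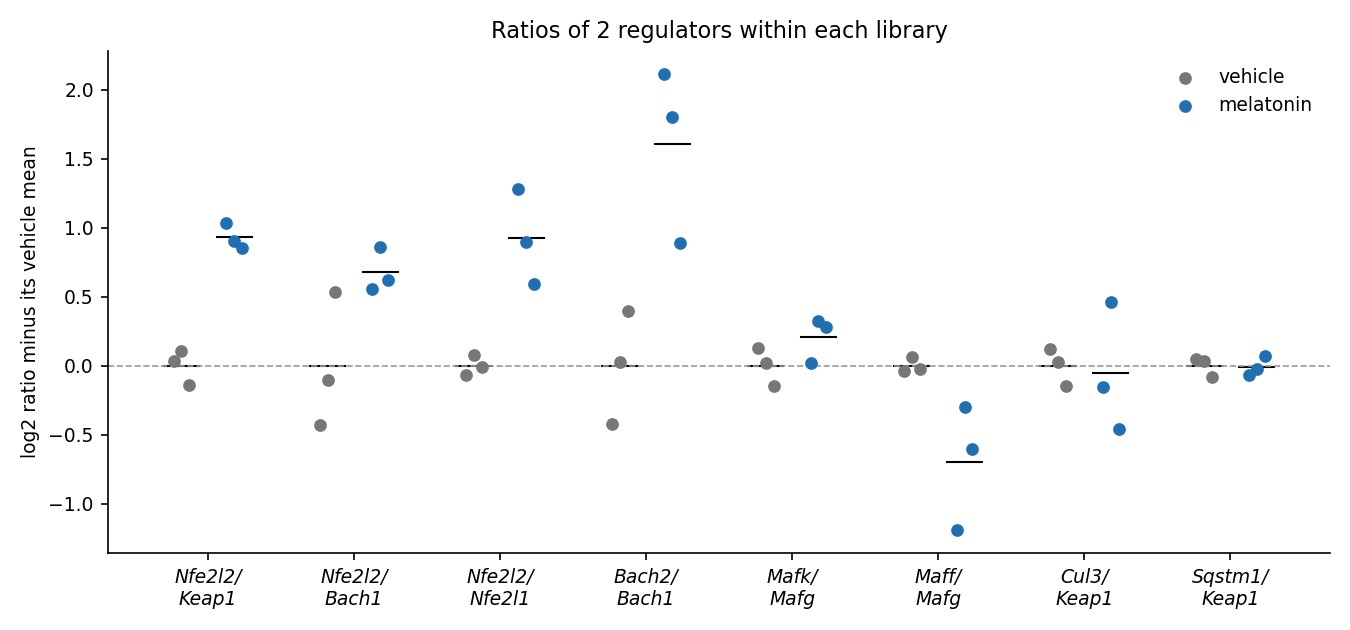
Log2 ratio of 2 regulators within each library, less the mean of that ratio in vehicle (vertical axis), for 8 ratios, with vehicle libraries in grey, melatonin libraries in blue and group means as black lines. The Nfe2l2 to Keap1 ratio is 0.93 higher with melatonin, and the group means of Sqstm1 to Keap1 are nearly the same.

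The genes around these regulators were described from lists, each set against the 24.5% higher and 24.7% lower over all genes. Of 31 NRF2 target genes tested, 16 rose (51.6%), 3 fell (9.68%) and 12 did not pass, with a median log2 fold change of 0.43. Gclc, the catalytic subunit of glutamate-cysteine ligase and the first step of glutathione synthesis, was at 1906, 3368 and 4056 normalized counts in vehicle and 25020, 21410 and 15800 with melatonin (log2 fold change 2.78, limma adjusted p = 0.000112). Nqo1, a quinone reductase, was at 2073, 2358 and 2381 in vehicle and 9650, 6514 and 6864 with melatonin (1.74, adjusted p = 6.41e-05 by limma). Ftl1, the ferritin light chain, rose from 42360 ± 573 to 119200 ± 9898 (SD, n = 3 each; 1.49, adjusted p = 2.29e-05 by limma), although it has many near-identical copies between which reads may be divided. The targets that fell were Slc7a11, the cystine importer (-0.56, limma adjusted p = 0.0125), Tkt, the transketolase of the pentose phosphate pathway (-0.43, 0.00107), and Abcc1, an exporter of glutathione conjugates (-0.40, 0.0261). The call of Abcc1 was lost with no trend (adjusted p = 0.072) and without vehicle replicate 1 (-0.38, adjusted p = 0.0779) or vehicle replicate 3 (-0.36, adjusted p = 0.0871), and its log2 fold change was -0.26 without melatonin replicate 1. Without that melatonin library, 5 targets were called lower.

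A list of 12 genes that BACH1 represses was examined, 8 of them NRF2 targets as well, so that the lists are not independent. Of these, 9 rose, none fell (also 0 at an unadjusted limma p under 0.05) and 3 did not pass, with a median log2 fold change of 0.79. Without melatonin replicate 1, and with only the libraries that carry Y-linked transcripts, 1 was called lower. Of the 9, all named here to show what they do, 5 handle heme or iron (Fth1, Ftl1, Slc48a1, Blvrb and Fech) and 4 serve glutathione, quinone, peroxiredoxin or thioredoxin metabolism (Gclm, Nqo1, Srxn1 and Txnrd1). The rise of Gclm, the modifier subunit of glutamate-cysteine ligase, was from 1666 ± 389 to 4232 ± 426 (SD, n = 3 each; log2 fold change 1.37, limma adjusted p = 0.000322). Hmox1, heme oxygenase 1 and the best known BACH1 target, is named here after its values were seen: it was at 1504, 1560 and 1565 in vehicle and 1644, 1262 and 1392 with melatonin. Melatonin replicate 1 was above all vehicle libraries and the other melatonin libraries were below them, so the groups overlapped. The log2 fold change of Hmox1 was -0.12 (SE 0.10, limma adjusted p = 0.382) and did not pass the test.

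Among 12 genes whose products bind KEAP1 or work with p62, 8 rose, none fell (also 0 at an unadjusted p under 0.05) and 4 did not pass limma (median log2 fold change 0.52). Ulk1, the kinase that starts autophagy, went from 298 ± 93.7 to 930 ± 207 (SD, n = 3 each; log2 fold change 1.66, limma adjusted p = 0.000559). Sesn1, a sestrin that restrains mTORC1, rose by 1.48 (limma adjusted p = 2.09e-05) and Nbr1, an autophagy receptor related to p62, by 1.05 (limma adjusted p = 0.000284). Sqstm1 rose less than each of these, with a log2 fold change of 0.27, although the differences between genes were not tested.

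Of 16 genes of the ubiquitin ligases that act on NRF2, 8 rose, 4 fell and 4 did not pass (median log2 fold change 0.26). Those that rose most were Cul4a, a cullin scaffold (0.75, limma adjusted p = 0.00146), Dcaf11, a substrate receptor of that cullin (0.65, 0.00109), and Syvn1, the endoplasmic reticulum ligase HRD1 (0.60, 0.00205). Cops5, the catalytic subunit of the COP9 signalosome that strips NEDD8 from cullins, fell most (-0.52, limma adjusted p = 0.00213), with Ddb1, the adaptor of CUL4 (-0.44, 0.00265), and Rbx1, the RING subunit that CUL3 needs (-0.31, 0.0169). The call of Rbx1 was lost with no trend (adjusted p = 0.0523) and without vehicle replicate 1 (-0.29, adjusted p = 0.0655) or vehicle replicate 2 (-0.29, adjusted p = 0.0726). The counts rest on single libraries too, with 4 higher and 2 lower without vehicle replicate 1, and 5 higher and 2 lower without vehicle replicate 2. The share that fell, 25%, is close to the 24.7% over all genes.

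Of 7 genes that process NRF1, 3 rose, 1 fell and 3 did not pass (median log2 fold change 0.19). Ngly1, the glycanase that edits NRF1, went from 2240 ± 169 to 4269 ± 491 (SD, n = 3 each; 0.93, limma adjusted p = 0.00024), and Fbxw7, a ligase subunit that recognizes nuclear NRF1, from 234 ± 5.74 to 466 ± 34.2 (0.99, limma adjusted p = 0.000253). Syvn1, which is also in the ubiquitin ligase list above, was the other gene that rose (0.60, limma adjusted p = 0.00205). Hcfc1, a chromatin cofactor, fell by 0.86 on the log2 scale (limma adjusted p = 0.00114). The proteasome subunits, which NRF1 is known to drive, went the other way from Nfe2l1 itself. Of 31 tested, none rose (also 0 at an unadjusted p under 0.05), 25 fell (80.6%) and 6 did not pass limma, with a median of -0.38. With quantile normalization, 1 was called higher and 17 were called lower. Without vehicle replicate 1, and also without vehicle replicate 2, 18 were called lower. Psma2 fell from 8276 ± 600 to 4740 ± 276 (SD, n = 3 each; -0.80, limma adjusted p = 0.000174), while the log2 fold change was -0.77 for Psmb4 (limma adjusted p = 0.000804) and -0.76 for Psma5 (limma adjusted p = 0.000353).

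Relatives and cofactors of NRF2 were examined last. Of 6 CNC and large MAF relatives, 3 were tested and none passed limma, also at an unadjusted p under 0.05 (0 genes). With upper quartile scaling and with the length correction, 1 was called lower. Nfe2 was listed but did not reach the filter of 10 in any library, and Nfe2l3 and Nrl were not listed. Of 6 co-regulators of NRF2, 1 fell, which was Smarca4, the BRG1 ATPase of the SWI/SNF remodeller (2945 ± 167 to 2341 ± 170, SD, n = 3 each; log2 fold change -0.33, limma adjusted p = 0.011), and 5 did not pass. The number that fell was 3 without melatonin replicate 3, with sample weights and with the length correction, and 0 with only the libraries that carry Y-linked transcripts.

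**Figure D5:**
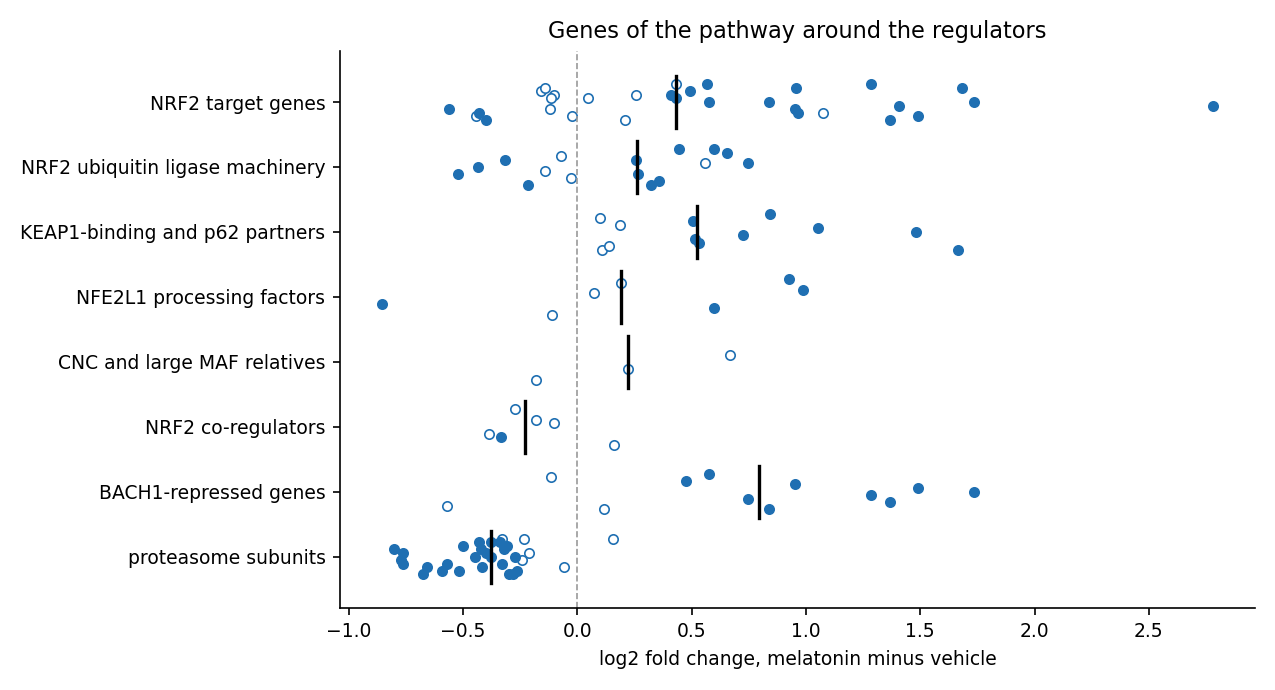
Log2 fold change (melatonin minus vehicle, 3 libraries each) of every gene tested in 8 lists around the regulators, filled where the limma adjusted p was under 0.05, with the median of each list as a black line. The NRF2 targets reach 2.78 at Gclc, and 25 of 31 proteasome subunits are filled points below 0.

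For 4 members the genes with the most similar profile were sought among 9990 genes, by the root mean square distance between log2 profiles over the 6 libraries, each centred on its own mean. Nearest to Nfe2l2 were Carhsp1, Faah and Klhl25, at distances of 0.043, 0.045 and 0.057. Nearest to Keap1 were Usp19 and Rbm45, both at 0.025. Nearest to Maff were Rdh13, Rrs1 and Lmnb1, at 0.084, 0.106 and 0.107. The most similar genes to Bach2 were much farther away, Akr1c13, Pde7b and Tcp11l2 at 0.220, 0.231 and 0.294. The 6 libraries form only 2 groups, so a short distance mainly reflects a like change between groups.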

How the data were processed

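A total of 6 libraries were analysed, 3 of melatonin and 3 of vehicle, grouped by the treatment in the labels. The authors' names of all vehicle libraries carry a suffix that the melatonin names lack, and their serial numbers form a separate run. What this marks is not stated, and its part in the results was not tested. The authors made cDNA with a low-input SMARTer kit, which does not mark strand. In Partek Flow they trimmed the reads, used STAR for alignment to mm39, quantified GENCODE M33 with the E/M algorithm and dropped genes under 10 counts in every sample. The deposited values are a signal: those estimated counts, divided by the authors with DESeq2 median-ratio size factors. Median-ratio scaling assumes that most genes do not change, and the E/M step divides shared reads among genes. The value of one read, found from the spacing of low values, gave the estimated counts. Only between 69.1% and 73.8% of values under 60 were whole reads at a tolerance of 0.01, so no count test was run.

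With a pseudocount of 1, log2 normalized counts were tested in limma 3.58.1 (R 4.3.3, eBayes with a mean-variance trend) for the 14419 genes that reached 10 in any library. Fold changes are on that scale, which understates those of low genes. Intervals are 95% and cover the spread between libraries. All 10 members passed the filter. The members, lists and tests were chosen with earlier results of these data known. Within the lists, the genes named are the up to 3 highest and up to 3 lowest fold changes among those called whose mean reached 100. The other BACH1-repressed genes that rose, and Hmox1, are named outside this rule, after their values were seen. Distances used genes with that mean. A gene that the distances name is not reported here. Lengths and positions came from GENCODE M39 on GRCm39, and promoters were read with pysam 0.24.0. Other tools were numpy 2.4.6, pandas 2.3.3, matplotlib 3.10.9 and scipy 1.17.1. The test was checked on simulated data. The alternatives changed the pseudocount, filter, scaling, limma settings, length correction, block and libraries used. Because strand is not marked, reads of Keap1 and the antisense Gm16754 (43.8 normalized counts in vehicle), and of Sqstm1 and the antisense Mrnip (128) and Mgat4b (987), cannot be told apart where the genes overlap. On the same strand, Mafg shares 125 bases with Sirt7 (2397 normalized counts in vehicle and 3442 with melatonin), and Cul3 shares 1818 with Gm37262 (5.65 in vehicle).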

Additional observations from a re-analysis of the deposited data

How the results depend on the processing

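Nfe2l2 (19 alternatives) and Bach2 (18) kept their calls throughout, and Bach1 (18) and Mafk (19) were called in none. With the length correction, 2 members were called higher, since Nfe2l1 (0.19), Keap1 (0.24) and Sqstm1 (0.17) no longer passed. Keap1 also failed with upper quartile scaling (0.23), with no trend (0.28) and with the replicate block (0.28, adjusted p = 0.0816), and the block ended no other member's call. Ubiquitin ligase genes called higher numbered 5 rather than 8 with the block, the length correction or no trend, and with no trend 2 rather than 4 were lower. Co-regulators called lower numbered 2 rather than 1 with the block, quantile normalization or upper quartile scaling. The shared replicate numbers did not pair the libraries (correlations of their deviations -0.05, 0.006 and -0.05). Members called lower numbered 0 with quantile normalization, where Maff was at -0.66, and with a mean of at least 100, which leaves Maff out. NRF2 targets called lower numbered 5 with sample weights. In an alternative added after seeing the data, only libraries with Y-linked transcripts were used (3 vehicle, 1 melatonin, assumed to vary like the vehicle): Nfe2l1 at 0.19 (adjusted p = 0.0611) was no longer called and Mafg was at 0.0069, while Nfe2l2 was at 1.48, Bach2 at 3.04, Keap1 at 0.44 and Bach1 at 0.92. Leaving out 1 library at a time gave 2 (without vehicle replicate 2) to 6 members higher, 0 (without vehicle replicate 2) to 1 lower, and 2 to 5 (without melatonin replicate 1) NRF2 targets lower. The log2 fold changes then ran from 0.23 to 0.33 for Nfe2l1, 0.20 to 0.35 for Keap1, 0.24 to 0.72 for Bach1, -0.24 to -0.0073 for Mafg, -0.019 to 0.50 for Cul3, -0.997 to -0.65 for Maff and 0.22 to 0.30 for Sqstm1, and the log2 ratio differences from -0.31 to 0.15 for Cul3 to Keap1 and -0.0498 to 0.0213 for Sqstm1 to Keap1. The cause of these shifts was not tested. No scaling moved the median of all genes by more than 0.054. Depth limits Bach2, Bach1 and Maff most.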
